A study of Homo sapiens with 10 samples.

Results

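The mitochondrial ribosomal proteins are the protein subunits of the mitoribosome, the ribosome inside mitochondria, and their genes carry symbols that start with MRPL (large subunit) or MRPS (small subunit). Members were all genes with a probe set of exactly 1 gene symbol of this form, a number and at most 1 further letter, without pseudogenes. This gave 75 of the 19775 genes with such a probe set, from 140 of the 54675 probe sets, and each gene was represented by its probe set of highest mean intensity. By protein location, 50 members belong to the large and 25 to the small subunit, with MRPS30 and MRPS18A counted in the large subunit despite their names. A bacterial counterpart is known for 47, and 28 are specific to mitochondria. All 75 were bright enough to be tested.

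RNA from cultured human gastric cancer cells was measured on 10 single-channel arrays. Side population cells pump out the DNA-binding Hoechst dye and are collected by flow cytometry as a dye-poor fraction, and non-side population cells keep the dye. Side population and non-side population cells had 4 arrays each, with replicate letters a to d, and unsorted cells had 2, with letters a and b. The origin label of all 10 names the gastric carcinoma lines AGS and MKN 45, and the source label of 8 names AGS alone. The other 2, side population a and b, have a source label without a line name. Cells were harvested with trypsin, and the labels give no treatment that separates the groups besides the sort. Whether the replicates are separate cultures is not stated, and the p-values therefore cover only variation among these samples, part or all of which may be technical.

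Mitoribosomal proteins are encoded in the nucleus, made in the cytosol and imported, and they assemble with ribosomal RNAs made from mitochondrial DNA. The finished ribosome translates the mitochondrially encoded subunits of the respiratory chain and ATP synthase, which join subunits of nuclear origin. Members of the ETS family, NRF1 and YY1 are known regulators of nuclear genes for mitochondrial proteins.

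Promoters were matched in RefSeq for 67 of the 75 members, on 20 chromosomes (GRCh38.p14; windows of 250 bases before to 50 after the start). They are given as background, and any link between them and the members' levels was not tested. The ETS family core CCGGAAG was found on either strand in 28 of the 67 windows (41.8%), against 21.2% of the 8235 tested genes with a promoter and 10.7% of all 27305 promoters. The YY1 letters AAGATGGC were in 19 (28.4%), against 6.14% of tested genes and 3.03% of all. In 14 of the 19 they lay at or after the start, where their ATG can also be a start codon, and in 15 they were on the gene's own strand. The NRF1 letters GCATGCGC were in 6 (8.96%), against 5.97% and 3.27%. Both the ETS and the YY1 letters were in 8 members' windows. These are matches of letters, not measured binding. The 250 bases before the start of 3 members described below are printed 5′ to 3′ on the gene's strand, with the ETS core in capitals.
MRPL38, chr17:75904885-75905134, minus strand: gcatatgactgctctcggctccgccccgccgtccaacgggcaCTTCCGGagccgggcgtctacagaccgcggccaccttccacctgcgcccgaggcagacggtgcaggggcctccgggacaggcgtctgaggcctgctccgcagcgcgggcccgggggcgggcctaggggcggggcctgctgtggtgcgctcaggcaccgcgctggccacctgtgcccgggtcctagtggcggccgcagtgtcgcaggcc
MRPS10, chr6:42217862-42218111, minus strand: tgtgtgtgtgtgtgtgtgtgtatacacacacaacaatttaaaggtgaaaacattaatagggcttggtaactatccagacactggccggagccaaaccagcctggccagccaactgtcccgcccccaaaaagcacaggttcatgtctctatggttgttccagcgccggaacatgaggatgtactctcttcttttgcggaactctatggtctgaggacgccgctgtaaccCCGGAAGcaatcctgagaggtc
MRPL3, chr3:131502972-131503221, minus strand: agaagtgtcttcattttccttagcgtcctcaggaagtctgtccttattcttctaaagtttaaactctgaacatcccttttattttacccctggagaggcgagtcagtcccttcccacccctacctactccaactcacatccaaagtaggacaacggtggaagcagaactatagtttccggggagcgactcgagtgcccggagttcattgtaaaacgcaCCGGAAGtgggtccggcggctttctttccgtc

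For 6 members named in the comparisons, the 30 bases around the YY1 letters follow, with those letters in capitals. All lie within the promoter window of their gene.
MRPL38, chr17:75904860-75904889, minus strand: aggccggagggAAGATGGCggcgccctggt
MRPS10, chr6:42217834-42217863, minus strand: tcgggaccggcAAGATGGCggcgcggacag
MRPL42, chr12:93467511-93467540, plus strand: aggattgaaacAAGATGGCgggttcgtggt
MRPS30, chr5:44808949-44808978, plus strand: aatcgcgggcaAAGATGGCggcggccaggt
MRPL50, chr9:101398577-101398606, minus strand: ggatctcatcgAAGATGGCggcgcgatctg
MRPL20, chr1:1407260-1407289, minus strand: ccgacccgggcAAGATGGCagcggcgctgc

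The deposited intensities had been scaled to a common trimmed mean, and the medians over all probe sets were between 58.7 and 85.4, the highest in non-side population replicate c. The ratio of 3′ to 5′ intensity, a measure of RNA integrity, was 3.341 for actin and 1.869 for GAPDH in side population replicate a, against 0.9874 to 1.282 and 0.8642 to 1.057 on the other 9 arrays. Of the epithelial markers 6 of 6 were tested, with summed intensities of 89680 to 114300 in side population, 77560 to 135200 in non-side population and 110600 and 118700 in unsorted cells. Fibroblast markers, 6 of 6 measured and mostly COL1A1, summed to 1247 to 2221, 1201 to 1720, and 1417 and 2194 in the same order of groups. Blood and endothelial markers, 6 of 7 measured, summed to 316.2 to 429.2 in side population, 206.2 to 506.4 in non-side population and 353.4 and 397.7 in unsorted cells. Among the 10 arrays the epithelial sum was highest in non-side population replicate b (135200) and lowest in replicate c (77560), which were also the highest and lowest arrays of the family described next. The blood and endothelial sum was lowest in replicate c as well (206.2). Their part in the results was not tested.

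Members of the family went up and down together from array to array. Mean log2 intensity over the 75 members was 11.44, 11.60, 11.84 and 11.57 in side population replicates a to d. It was 11.78, 12.16, 11.10 and 11.58 in non-side population replicates a to d, and 11.72 and 11.68 in the pair of unsorted arrays. The non-side population thus held both the highest and the lowest array, and the side population and unsorted arrays lay between them. Over all 9888 genes tested the mean stayed between 10.08 and 10.25. Fewer cells with much of these RNAs and less of them per cell cannot be told apart in such bulk samples.

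**Figure D1:**
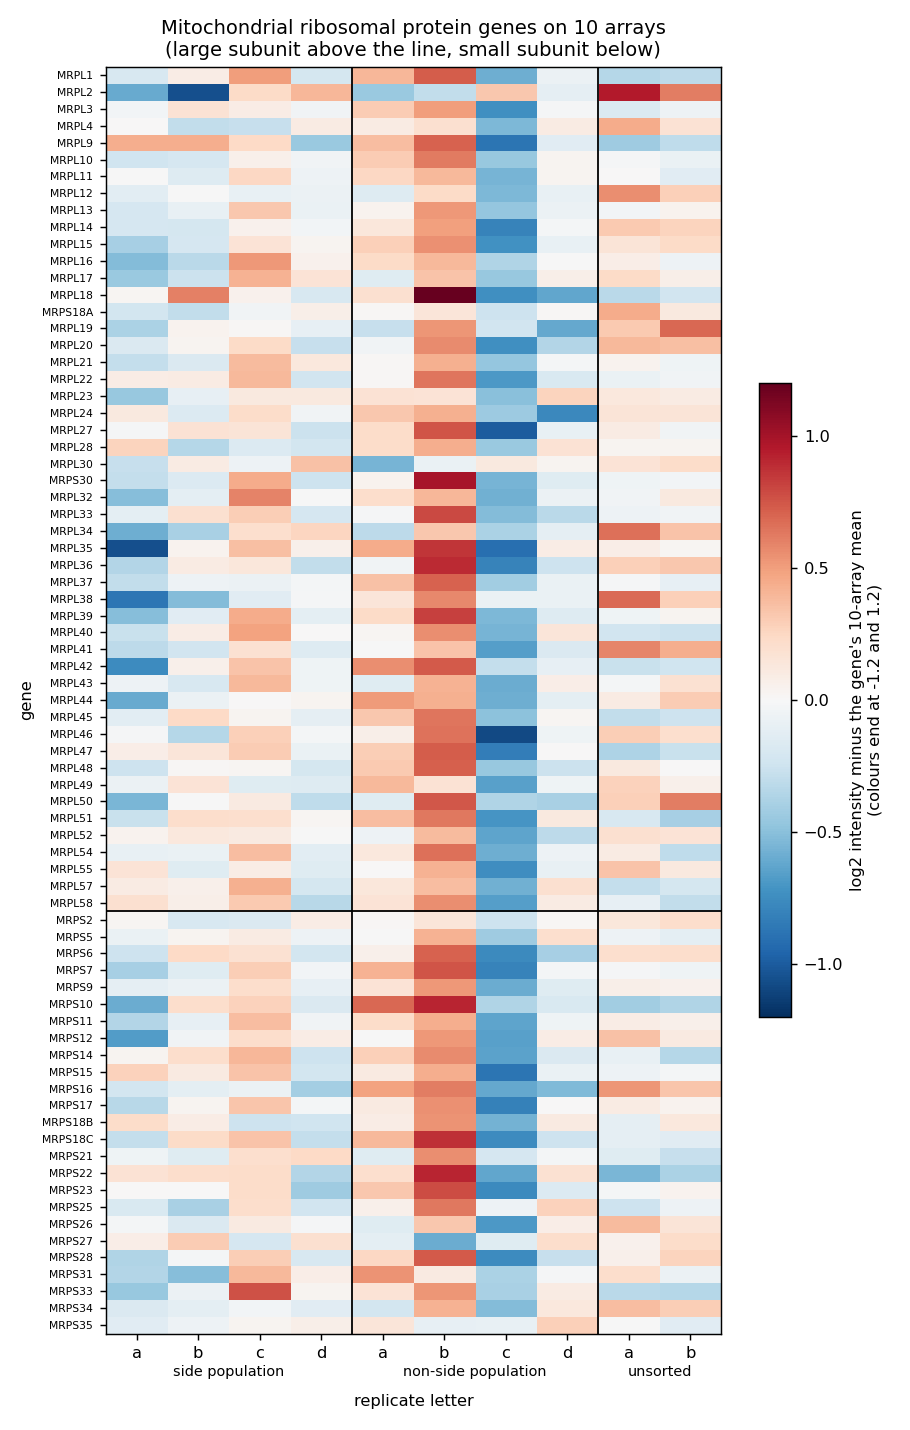
Each row is 1 mitochondrial ribosomal protein gene and each column 1 array, ordered as side population, non-side population and unsorted cells, and the colour gives the log2 intensity minus that gene's mean over the 10 arrays. Non-side population replicate b is red for 71 of 75 genes, and replicate c is blue for 73.

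Non-side population replicate b held the highest of the 10 values for 53 members, and non-side population replicate c the lowest for 55. In replicate b 71 members lay above their own 10-array mean and in replicate c 2 did. The corresponding counts were 18, 33, 62 and 21 in side population replicates a to d, 56 and 28 in non-side population replicates a and d, and 42 in each unsorted array. Of all genes tested, 44.4% lay above their mean in non-side population replicate b and 52.4% in replicate c. After quantile normalization, 71 and 4 members did.

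Between non-side population replicates b and c, 2 arrays of 1 group, 71 of 75 members (94.7%) were higher in b, by a median of 1.11 log2 units. Over all genes tested 44.1% were higher, with a median of -0.15. A difference of at least 1 log2 unit was seen for 46 members (61.3%) and for 10.7% of all genes tested. The next genes were chosen after their values were seen. MRPL18, the counterpart of a bacterial large-subunit protein that binds 5S ribosomal RNA, read 17651.2 in replicate b and 4472 in replicate c, a difference of 1.98. MRPL35 (1.76), MRPL27 (1.76), MRPL46 (1.74) and MRPL36 (1.70) followed. The 4 exceptions were MRPL2 (-0.62), MRPS27 (-0.45), MRPL30 (-0.20) and MRPS35 (-0.007).

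**Figure D2:**
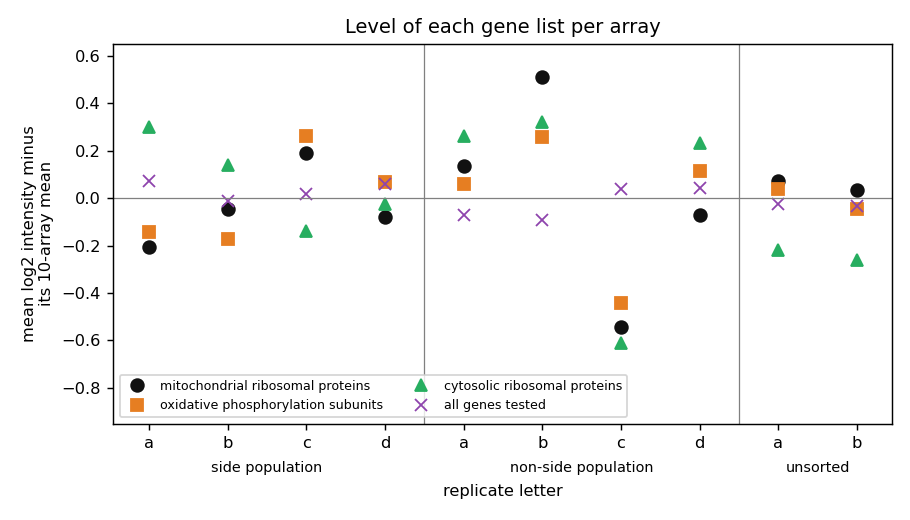
Mean log2 intensity of 4 gene lists on each array, as the difference from the list's own mean over the 10 arrays. The mitochondrial ribosomal proteins are highest in non-side population replicate b and lowest in replicate c, where oxidative phosphorylation subunits and cytosolic ribosomal proteins are lowest too.

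Other lists shared part of this pattern. Oxidative phosphorylation subunits (64 tested) averaged 12.76 log2 units in non-side population replicate c, their lowest array, and between 13.03 and 13.47 on the other 9. Cytosolic ribosomal proteins (52 tested) averaged 14.28 there and 14.63 to 15.22 elsewhere, highest in non-side population replicate b. The median SD of log2 intensity over members was 0.26 in side population, 0.48 in non-side population and 0.068 in unsorted cells. For oxidative phosphorylation it was 0.21, 0.38 and 0.075, and for all genes tested 0.30, 0.39 and 0.12. Both subunits moved alike, with means of 12.18 (large) and 12.11 (small) in non-side population replicate b and 11.11 and 11.08 in replicate c.

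The first comparison asked whether side population cells differ from non-side population cells in these genes. By limma 0 of 75 members passed (adjusted p under 0.05, Benjamini-Hochberg over all 9888 genes), as did 0% of all genes tested. The median log2 fold change was -0.032 over members and 0.045 over all genes tested. In value, 29 members were higher and 46 lower in side population cells, between -0.52 and 0.26. At an unadjusted p under 0.05 there was 1 member (1.33%), MRPL38, against 4.35% of all genes tested. In 0 members did the groups not overlap, against 1.01% of all genes higher without overlap and 0.576% lower. The large subunit had a median of -0.018 and the small subunit -0.060. Members with a bacterial homologue were at -0.019 and those specific to mitochondria at -0.074.

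MRPL38, a mitochondria-specific protein of the large subunit's central protuberance, read 1063.6, 1348.5, 1767.5 and 1925.5 in side population cells. It read 2145.6, 2906.4, 1838.1 and 1832.3 in non-side population cells and 3108.4 and 2374.5 in unsorted cells. Side population replicates a and b were the lowest of all, and replicate d lay within the non-side population range. The log2 fold change, side over non-side population, was -0.52 ± 0.24 (SE, n = 4 and 4; adjusted p = 0.997 by limma). Its probe set of low intensity had the opposite sign (0.052).

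Among the other members with the smallest p, MRPS25, a mitochondria-specific small-subunit protein, read 1459.7, 1268.9, 1917.8 and 1410.1 in side population cells and 1725.8, 2566.7, 1590.4 and 2004.6 in non-side population cells (log2 fold change -0.37 ± 0.22). MRPS27, a pentatricopeptide repeat protein of the small subunit, ran the other way at 2063.8, 2415.2, 1694.2 and 2226 in side population cells and 1800.7, 1285.7, 1757.8 and 2250 in non-side population cells (0.26 ± 0.22). It was lowest in non-side population replicate b, the array in which most members were highest. MRPS10 of the small subunit's head was at -0.34 ± 0.30 and MRPL42 at -0.33 ± 0.27. MRPL37, related to MRPS30, was at -0.25 ± 0.23, MRPL10 of the stalk base at -0.23 ± 0.23 and MRPL28 at -0.21 ± 0.23. MRPS15 (0.23 ± 0.25) and MRPL52 (0.23 ± 0.21) were higher in value in side population cells. None of these passed the test, with adjusted p of 0.997 or more.

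The fixed members with known special roles did not pass either. MRPL12, which also binds the mitochondrial RNA polymerase, was at 0.063 ± 0.20 and MRPL11 of the stalk at -0.019 ± 0.22 in side over non-side population. MRPL44, with an RNase III-like fold, was at -0.22 ± 0.26 and MRPL58, a peptidyl-tRNA hydrolase that frees stalled ribosomes, at 0.020 ± 0.25. MRPS12 of the decoding centre was at -0.094 ± 0.26, and MRPS16 and MRPS22, in which inherited defects impair respiration, were at -0.19 ± 0.28 and -0.11 ± 0.28. The paralogues MRPS18A, MRPS18B and MRPS18C were at -0.10 ± 0.19, -0.086 ± 0.24 and -0.066 ± 0.30, and MRPS30 at -0.15 ± 0.29.

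**Figure D3:**
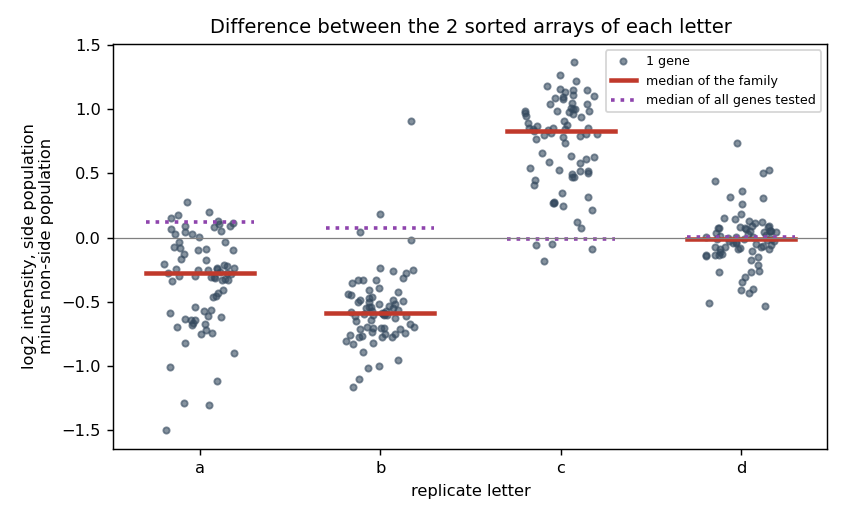
The log2 intensity of side population minus that of non-side population is shown for each of the 75 genes (points) within the replicate letters a to d, with the median of the family (solid line) and of all genes tested (dotted line). The family's median is -0.28 at letter a, -0.59 at b, 0.83 at c and -0.010 at d.

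The group value joined arrays with different directions. Taken letter by letter, side population was higher than non-side population for 16 of 75 members at letter a (median difference -0.28, over all genes tested 0.12). It was higher for 3 at letter b (median -0.59, all genes 0.077) and for 71 at letter c (median 0.83, all genes -0.008). At letter d it was higher for 35 (median -0.010, all genes 0.006). Side population was higher at all 4 letters for 0 members and lower at all 4 for 0, and 28 were lower at a and b and higher at c and d. Non-side population replicates b and c, the highest and lowest arrays for the family, are the comparators at letters b and c. Without these 2 arrays, a choice made after seeing the data, the median was -0.069, with 25 members positive and 50 negative.

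The arrays behind these directions can be seen in single members. MRPL42, a mitochondria-specific large-subunit protein, read 3508.5, 6162.9, 7499.8 and 5680.2 in side population cells, 8680.3, 9808.1, 4850.8 and 5508.4 in non-side population, and 4920.1 and 5003.4 in unsorted cells. Non-side population a and b were its highest arrays and side population a its lowest. MRPS16 read 2120.3, 2277.5, 2344.6 and 1864.7 in side population cells, 3444.8, 3783.6, 1611.9 and 1713.3 in non-side population, and 3557.3 and 3116 in unsorted cells. Its non-side population values lay in 2 pairs, a and b above every side population array and c and d below. MRPL44 read 984.2, 1422.1, 1498.2 and 1531.2 in side population cells, 2135.8, 2013.6, 996.9 and 1379.4 in non-side population, and 1604.1 and 1845 in unsorted cells. MRPS18C of the small subunit read 3350, 4800.8, 5191.9 and 3349.7 in side population cells, 5352.1, 7519.3, 2421.5 and 3444.3 in non-side population, and 3796.1 and 3730.5 in unsorted cells. For both, non-side population a and b lay above every side population array and replicate c was near or below the lowest of them. MRPL35, chosen after its values were seen, read 1089.2 in side population a and 2345.4 to 2931.8 on the other 3 side population arrays. It read 3091.7, 4136.2, 1213.4 and 2423.6 in non-side population, and 2402.1 and 2309.3 in unsorted cells. A dimmer probe set of MRPL35 did not differ in this way, at 420.4 in side population a and 419 in non-side population a. Its dimmest read 99.1 and 160.7 on these arrays. Side population a held the lowest of the 10 values for 10 members.

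Letters a and b against letters c and d is a division known from earlier results of these data. Side population a and b are also the arrays whose source label names no line, while non-side population a and b are labelled AGS. Any difference of cell line and the difference between sorted groups cannot be told apart within letters a and b. In a fit with the 2 divisions as separate groups, side population was lower for 73 of 75 members within letters a and b (median -0.43, all genes 0.098). Of these, 4 passed (5.33%), when 9.2% of all genes tested passed, so the share of members was below that of all genes. At an unadjusted p under 0.05 limma gave 23 of 75 members (30.7%), equal to the share of all genes tested (30.7%). On the log2 scale MRPL38 fell by 1.06 ± 0.23 (adjusted p = 0.0248 by limma, SE, n = 2 and 2), MRPL42 by 0.99 ± 0.26 (0.0394), MRPS10 by 0.99 ± 0.27 (0.0419) and MRPS16 by 0.72 ± 0.21 (0.0474). These calls rest on the represented probe set of each gene. In side population a and b a dimmer MRPS10 probe set read 2690.8 and 2722.6, against 2953 and 2321.2 in non-side population a and b. A further one of MRPS10 read 1413 and 2317.6 against 4170.2 and 4625.8. The other of MRPS16 read 783.3 and 568.3 against 696.7 and 708.5. A dimmer one of MRPL42 read 1579.6 and 2062.1 against 2779.8 and 2343.5. The dim one of MRPL38 read 171.9 and 108.6 against 152.1 and 104.7. Within letters c and d 70 of 75 were positive (median 0.41), with 0 called (0% of all genes) and 7 (9.33%) at an unadjusted p under 0.05, against 4.4% of all genes tested. There MRPL38 stood at 0.008, MRPL42 at 0.34, MRPS10 at 0.32 and MRPS16 at 0.33.

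The difference between the divisions itself passed for 0 members (0% of all genes tested). By limma 43 (57.3%) had an unadjusted p under 0.05, as did 2652 of all genes tested (26.8%), and the smallest adjusted p was 0.0993. Leaving out 1 array from letters a and b leaves an arm of 1, whose spread is taken from the other groups. Without side population replicate a, which had the raised 3′ to 5′ ratios, 0 members were called (0.0101% of all genes), and without non-side population replicate b also 0 (0% of all genes). By limma the smallest adjusted p of a member was 0.143 and 0.102 in these 2 fits. The sign was the same for most members in these fits, with 73 and 60 of 75 negative (medians -0.37 and -0.25). Without side population replicate b the median was -0.505, with 72 of 75 members negative. Without non-side population replicate a it was -0.666, with 73 negative.

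Side population and non-side population cells were each set against unsorted cells, which passed no sorter. The same 2 unsorted arrays serve both comparisons, so their values are not independent. Against unsorted cells 0 of 75 members passed in side population, when 2.45% of all genes did, and 0 of 75 in non-side population, when 3.66% did. At an unadjusted p under 0.05 limma gave 3 members (4%) in side population, against 17.2% of all genes tested, and 4 (5.33%) in non-side population, against 19.6%. The median log2 fold change was -0.064 in side population (all genes 0.041), with 26 members higher and 49 lower, between -1.04 and 0.53. It was -0.009 in non-side population (all genes -0.011), with 36 higher and 39 lower, between -0.91 and 0.65.

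**Figure D4:**
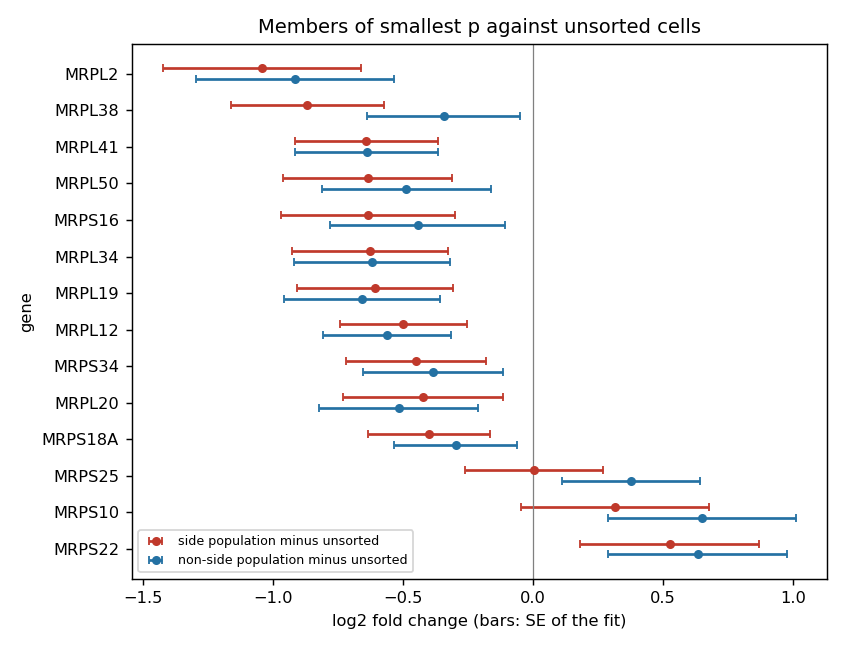
Log2 fold change against unsorted cells with the standard error of the fit, for the members with the smallest p in either comparison, side population above non-side population for each gene. MRPL2 and MRPL38 have the most negative side population values, and MRPS22 and MRPS10 the most positive values of those shown.

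Where the groups do not overlap, 8 members (10.7%) were higher in side population than both unsorted arrays and 18 (24%) lower, against 21.4% and 15.5% of all genes tested. In non-side population 1 member was higher and 5 lower without overlap, against 15.6% and 16.3% of all genes. The 5 were MRPL12, MRPL2, MRPL30, MRPL34 and MRPL41, and the 1 was MRPS10.

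MRPL2, the counterpart of a bacterial protein at the peptidyl transferase centre, read 430.4, 313.6, 776.9 and 870.4 in side population cells and 483.6, 535.3, 824.6 and 612.5 in non-side population cells. Unsorted cells read 1283.7 and 1009.7, above all 8 sorted arrays. The log2 fold change was -1.04 ± 0.38 in side population (adjusted p = 0.162 by limma, SE, n = 4 and 2) and -0.91 ± 0.38 in non-side population (0.202), neither passing. Its other probe set was at -1.83 ± 0.37 in side population, which passed when every probe set was tested on its own (adjusted p = 0.0301), and at -1.15 ± 0.37 in non-side population.

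MRPL38 was at -0.87 ± 0.29 against unsorted cells in side population (adjusted p = 0.133 by limma) and -0.34 ± 0.29 in non-side population. MRPL41, a mitochondria-specific large-subunit protein, read 3639.1, 3845.7, 5126.2 and 4051.3 in side population cells, 4486.4, 5710.7, 2855.3 and 3990.1 in non-side population, and 6798.6 and 6102.2 in unsorted cells. Its fold change was -0.64 ± 0.28 in each sorted group (adjusted p = 0.242 and 0.216). MRPL12 read 2814.6, 3054.2, 2880.6 and 2919.1 in side population cells, 2764.1, 3597.3, 2109 and 2889.3 in non-side population, and 4531.4 and 3744.8 in unsorted cells. It was at -0.50 ± 0.24 and -0.56 ± 0.24. For both MRPL41 and MRPL12 the unsorted arrays lay above every sorted array.

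Further members lower in value in side population than in unsorted cells were MRPL34 (-0.63 ± 0.30), MRPL50 (-0.64 ± 0.32), MRPS16 (-0.63 ± 0.34), MRPL19 (-0.61 ± 0.30), MRPS34 (-0.45 ± 0.27) and MRPS18A (-0.40 ± 0.24). In non-side population MRPL34 was at -0.62 ± 0.30, MRPL19 at -0.66 ± 0.30, MRPL50 at -0.49 ± 0.32 and MRPL20 at -0.52 ± 0.31. MRPS22 was higher in value at 0.53 ± 0.34 in side population cells and 0.63 ± 0.34 in non-side population, and MRPS25 was at 0.005 ± 0.26 and 0.38 ± 0.26. None of these passed.

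MRPS10 read 1680.1, 2949.6, 3079.3 and 2246.3 in side population cells, 4100, 4786.7, 1982.9 and 2236 in non-side population and 1908.3 and 1977.6 in unsorted cells. The log2 fold change was 0.32 ± 0.36 in side population cells and 0.65 ± 0.36 in non-side population. Another of its probe sets read 1997.2 to 2722.6 in side population, 1893.6 to 2953 in non-side population and 1248.9 and 1317.4 in unsorted cells, at log2 fold changes of 0.87 ± 0.24 and 0.86 ± 0.24 over unsorted cells. The represented probe sets of MRPS10, MRPS22 and MRPL35 have identifiers ending in _x_at, a class that can also bind other transcripts.

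**Figure D5:**
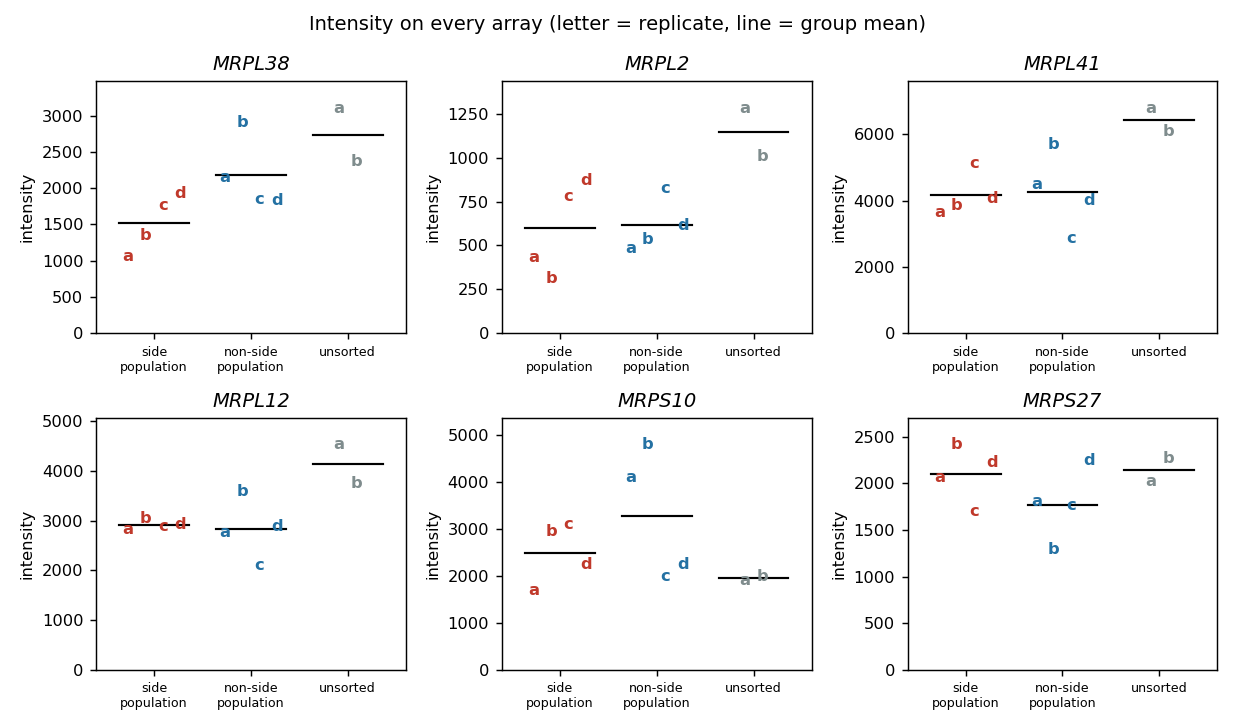
Intensity of 6 mitochondrial ribosomal protein genes on every array, on linear axes that start at 0, with each letter marking its replicate and the line the group mean. MRPL2, MRPL41 and MRPL12 are highest in the 2 unsorted arrays, and MRPS10 and MRPS27 show opposite positions of non-side population replicate b.

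Of the 37 members with several probe sets, all had the same sign for 17 in side over non-side population, for 15 in side population over unsorted and for 15 in non-side population over unsorted. Named members with a sign that differed in side over non-side population were MRPL19, MRPL20, MRPL38, MRPL41, MRPL44, MRPL57, MRPS10, MRPS12, MRPS15, MRPS18A, MRPS22, MRPS25 and MRPS30. MRPL23, MRPL30, MRPL35, MRPL39, MRPL43, MRPL47 and MRPS5 also did. All 4 probe sets of MRPS22 were higher in value than in unsorted cells in both sorted groups, and all 3 of MRPL50 were lower. The 4 of MRPS22 all have identifiers ending in _x_at, so each can also bind other transcripts. For MRPL38 and MRPL12 a dim probe set had the opposite sign against unsorted cells, at 1.14 ± 0.91 and 1.96 ± 1.11 in side population. MRPL41 also had dim probe sets of the opposite sign, at 1.609 ± 0.561 and 1.504 ± 1.021 in side population. In non-side population these were at 1.322 and 1.174, and their identifiers also end in _x_at. Its remaining probe sets were at -0.171 and -0.137 in side population and -0.262 and -0.335 in non-side population. For MRPL20 and MRPS18A the sign against unsorted cells also differed among probe sets in both sorted groups.

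The members chosen by brightness are given for their values, since intensities of different probes are not comparable as levels. MRPL3, near the peptidyl transferase centre, read 15485.6, 17798.5, 16830.6 and 15333.8 in side population cells, 19477.2, 22392.6, 9465.4 and 15677.2 in non-side population, and 13994.1 and 15127.5 in unsorted cells. MRPL57 and MRPS15 had the same extremes in the non-side population, at 14378.7 and 14910.4 in replicate b and 7488.3 and 5993 in replicate c. The dimmest members included MRPL48, with 1172.2 to 1418.1 in side population, 1019.3 to 2298.1 in non-side population and 1512.2 and 1401.2 in unsorted cells. MRPL28 read 1107 to 1688.4, 1032 to 1897.4, and 1437.4 and 1434.6 in the same groups. These 5 had replicate b at the top and replicate c at the bottom of the non-side population. MRPL2, the dimmest member, went the other way, at 535.3 in replicate b and 824.6 in replicate c, its highest non-side population value.

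Lists of the surrounding pathway were tested in the same fit. Among 23 mitoribosome assembly and rRNA modification genes, 0 were called in side over non-side population. Against unsorted cells 1 of the 23, DDX28, a helicase of the large subunit's assembly, was called lower in both sorted groups. The share of all genes tested that was called against unsorted cells was 2.45% (side) and 3.66% (non-side). Whether the list differs from all genes in its share of calls was not tested. DDX28 read 259, 313, 183.2 and 271.4 in side population cells, 239.9, 278.6, 177.1 and 256.6 in non-side population, and 760.5 and 672.1 in unsorted cells. On the log2 scale it fell by 1.48 ± 0.30 in side population (adjusted p = 0.0221 by limma) and by 1.58 ± 0.30 in non-side population (0.0117), with the 2 unsorted arrays above every sorted array. Leaving out each array in turn kept the call in 8 of 10 fits in both comparisons. Without unsorted replicate a it did not pass (adjusted p = 0.379 in side and 0.256 in non-side population by limma), at log2 fold changes of -1.39 and -1.49. Without unsorted replicate b it did not pass either (0.186 and 0.124), at -1.57 and -1.67. Both fits leave 1 unsorted array, which is assumed to vary like the other groups.

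Of 14 aminoacyl-tRNA synthetases of mitochondria 0 were called in side over non-side population. Against unsorted cells 1 of the 14, YARS2, the tyrosyl enzyme, was called lower in both sorted groups. This single call stands beside 2.45% (side) and 3.66% (non-side) of all genes tested. Whether this list differs from all genes was not tested either. YARS2 read 586.6, 746, 676.8 and 471 in side population cells, 641.5, 608.8, 583.4 and 596.7 in non-side population, and 2021 and 1008.8 in unsorted cells, which differed from each other more than the sorted arrays did. On the log2 scale it fell by 1.22 ± 0.30 in side population (adjusted p = 0.0457 by limma) and by 1.23 ± 0.30 in non-side population (0.035). The first call was kept in 2 of 10 fits that left out 1 array, those without non-side population replicate b or c, with adjusted p of up to 0.707 by limma. The second was kept in 6 of 10, and lost without either unsorted array (0.646 and 0.0552), or when replicate a (0.0634) or d (0.0692) of the non-side population was left out. Without unsorted replicate a the YARS2 values were -0.72 in side population cells and -0.73 in non-side population cells, and without unsorted replicate b they were -1.72 (side) and -1.73 (non-side).

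Among 15 mitochondrial translation factors 0 were called in any of the 3 comparisons, and limma gave 1 gene at an unadjusted p under 0.05 in side over non-side population and 1 in non-side population over unsorted. Of all genes tested, 4.35% were under it in side over non-side population. The share was 17.2% in side population over unsorted and 19.6% in non-side population over unsorted. Of 4 mitoribosomal proteins with names of another form 0 were called (0 at an unadjusted p under 0.05 by limma), and 4 of 4 were lower in value than unsorted cells in both sorted groups. DAP3, a small-subunit protein that binds GTP, read 5472.1 to 5903.3 in side population, 4040.9 to 8308.5 in non-side population and 6327.6 and 6118.8 in unsorted cells. Of 64 oxidative phosphorylation subunits 0 were called, and by limma 0, 1 and 1 had an unadjusted p under 0.05 in the 3 comparisons, with medians of 0.019 in side over non-side population, -0.012 in side population over unsorted and 0.009 in non-side population over unsorted. Within letters a and b 62 of 64 were negative (median -0.30), with 3 called lower (4.69%, against 9.2% of all genes tested). Within letters c and d 62 of 64 were positive (median 0.34), with 0 called. The mitochondrial ribosomal proteins had medians of -0.43 and 0.41 in these divisions. Cytosolic ribosomal proteins (52 tested, 0 called, and 0, 2 and 1 at an unadjusted p under 0.05 by limma) had medians of -0.071 and 0.11 there.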

How the data were processed

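The deposited files hold intensities, 54675 probe sets on each of 10 arrays, on a linear scale. The submitters' processing notes name GCOS 1.4, whose settings are not given in the sources used here. A mean, trimmed by 2% at each end, of the deposited intensities was 500.065 to 500.095 on every array, so no further scaling was applied. The platform annotation supplied gene symbols. The log2 of intensity plus 6.1, the 10th percentile, was taken, which understates changes of dim genes. Genes were represented by their probe set of highest mean intensity, and the 9888 of 19775 at or above the median (intensity 148.5) were tested. In R 4.3.3, limma 3.58.1 (lmFit, contrasts, eBayes with a trend) fitted 3 groups over all 10 arrays without covariates. P-values were adjusted by Benjamini-Hochberg over tested genes. The number of arrays limits the precision.

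Members and lists were chosen with earlier results of these data known. Named genes were, per comparison, called members or else those of smallest p up to 10, the 3 of highest and the 3 of lowest mean intensity, members whose probe sets differ in sign, and 11 fixed members. Others are said to be chosen after seeing values. The script was tested on simulated data. Alternatives were other constants, filters, probe set rules, quantile normalization, no trend in eBayes, a fit of the compared groups alone, AGS-labelled arrays alone, leaving out each array, the replicate letter as a block, and letters a, b and c, d apart. Motifs were searched on both strands in the first promoter listed per gene, and 11 members had several.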

Additional observations from a re-analysis of the deposited data

Results flagged for a closer look

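In 8 of the 150 groups of 4 sorted arrays tested, 1 array stood apart from the other 3 by a gap that is large for its group's whole range. Chance flags about 1 in 20 groups. In side population replicate c, 3 members were high: MRPS30 at 3243.1 (others 1949.9 to 2110.5), MRPS9 at 2415.2 (1929.2 to 1983.4) and MRPL54 at 2640.2 (1859.8 to 1922.2). In side population replicate a, MRPL37 at 3358.9 (others 3920.1 to 4041.2) and MRPL44 at 984.2 (1422.1 to 1531.2) were low. MRPS22 was low in side population replicate d, at 1664.3 against 2394.7 to 2469.2 on the other 3. In non-side population replicate c, MRPL23 at 2793.5 (others 4413.3 to 4752.1) and MRPL4 at 1460.1 (2272.9 to 2436.9) were low.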

How the results depend on the processing

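Leaving out each array in turn gave 0 called members in all 3 comparisons, and medians from -0.223 to 0.139 (side over non-side population), -0.159 to -0.012 (side population over unsorted) and -0.191 to 0.159 (non-side population over unsorted). The first lay at -0.223 without non-side population replicate c and at 0.139 without replicate b. With only AGS-labelled arrays the medians were 0.063, 0.085 and -0.009. Testing every probe set on its own called 1 of 122 member probe sets in side population over unsorted (2.1% of all). Within letters a and b side over non-side population called 4 members (median -0.434) and within letters c and d 0 (median 0.411, the opposite sign). Without side population replicate b the first was 5 (median -0.505, 5.91% of all genes) and without non-side population replicate a it was 3 (median -0.666, 5.31%). Against unsorted cells within letters a and b, side population called 4 (0 higher and 4 lower, 13.9% of all genes). Non-side population called 9 there (8 higher and 1 lower, 22.3%). Within letters c and d non-side population called 5 (0 higher and 5 lower, 11.9%, median -0.370). The cause was not tested. Apart from these and the replicate block, the alternatives gave 0 calls in each comparison. Of the tests of single named members 2297 kept their side of the threshold, 25 newly passed, 0 were lost and 0 reversed.

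Whether the replicate letters pair the samples is not settled. The correlation of deviations of same-letter sorted arrays was 0.21, 0.50, -0.113 and 0.364 for a to d, not over 0.1 in all 4. At a and b it was above that with every other letter (highest 0.032 and 0.154), and at c and d it was not (highest 0.257 and 0.431). With the replicate block 0 members were called in side over non-side population (median -0.032), 1 in side population over unsorted (7.54% of all genes; median 0.026) and 1 in non-side population over unsorted (9.8%; median 0.068), MRPL2 both times, at log2 fold changes of -1.45 (adjusted p = 0.01 by limma) and -1.32 (0.013).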
